A study of Rattus norvegicus with 8 samples.

Results

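Club cells, the secretory cells of the small airways, and the mucous cells of the larger airways were followed through 8 of their genes in rat lung under hypobaric hypoxia: Scgb1a1, Scgb3a2, Scgb3a1, Agr2, Muc5b, Pigr, Cd24 and Crym. The members were the non-control probes whose gene name in the scanner files, ignoring case and the ending "_predicted", equals one of these symbols. That rule found 6 of the 8 genes with 7 probes. Scgb3a2 is listed on the array under its older name Pnsp1 and was found through its accession (1 probe), and Muc5b is listed as RGD1561983 and was found through the RefSeq synonym (3 probes). The accessions of the 3 Muc5b probes were not matched, so their identity rests on that name alone. All 11 probes, of 41012 on the array, passed the filter on dim probes, so that the 8 genes stand among 24141 genes tested.

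The rats were pretreated over 7 days with normal saline or with cobalt (12.5 mg/kg; the labels do not say whether this was a daily dose) and then spent 6, 12, 24 or 48 h under the low pressure of 30000 ft. Total RNA of lung from each of these 8 groups was hybridised to 1 array (n = 1 per group) against RNA of rats with that pretreatment and 0 h of hypoxia. The labels name 1 control RNA for the 4 saline arrays and 1 for the 4 cobalt arrays, and give no strain, sex, age or number of animals. Hypoxia RNA carried the red dye Cy5 on the saline arrays and the green dye Cy3 on the cobalt arrays, and each pretreatment has a slide of its own, so pretreatment, slide, scan and dye orientation cannot be told apart. The spread behind each p-value is that of arrays at different durations, which may be technical, and not that of animals. That spread is pooled over all 8 arrays and moderated across genes. The saline and cobalt means of a gene therefore have the same SE, even where their arrays differ in spread. The 4 ratios of a pretreatment share 1 control RNA but were fitted as independent. A deviation in that RNA shifts all 4 together and does not enter the spread. P-values of the pretreatment means, their average, their difference and the single durations may therefore be too small.

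Secretoglobins are small secreted proteins of the airway lining. Scgb1a1, the club cell protein, and Scgb3a2 are abundant products of club cells, while Scgb3a1 is found more in the mucous and secretory cells of larger airways. Agr2 is a protein disulphide isomerase of the endoplasmic reticulum that mucin folding depends on, and Muc5b is the gel-forming mucin that keeps mucociliary clearance going. Pigr carries polymeric immunoglobulin A across the epithelium, Cd24 is a glycosylated surface protein of many epithelia, and Crym binds thyroid hormone in the cytosol. Values below are log2 ratios of hypoxia over 0 h, so that 1 is a doubling, and a gene is called when its Benjamini-Hochberg adjusted p over all genes tested, from limma, was under 0.05.

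The measurement of each gene rests on a 60-base probe, and the probes are shown because 2 genes were found under other names and because the same probe reads both dyes. Coordinates are those of the scanner files, on the rat build rn3 and the sequences are written as those files give them, in lower case with nothing marked.
Scgb1a1, chr1:211918166-211918225, minus strand: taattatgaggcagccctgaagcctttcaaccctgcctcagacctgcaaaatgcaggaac
Scgb3a1, chr10:35127424-35127483, plus strand: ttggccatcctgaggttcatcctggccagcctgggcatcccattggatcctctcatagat
Agr2, chr6:54712688-54714040, plus strand: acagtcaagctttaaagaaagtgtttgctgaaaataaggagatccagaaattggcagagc
Muc5b, chr1:202152564-202152623, plus strand: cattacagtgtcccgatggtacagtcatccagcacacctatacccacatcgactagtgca
Pigr, chr13:43816545-43816979, plus strand: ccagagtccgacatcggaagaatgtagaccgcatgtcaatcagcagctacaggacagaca
The Agr2 and Pigr matches span 1353 and 435 bases of genome for 60 bases of probe. Their G and C content ran from 38.3% for Agr2 to 55.0% for Scgb3a1, against a median of 43.3% over the 41012 probes. For Muc5b and Cd24, which have several probes, the brightest stood for the gene.

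Upstream sequence is shown for 3 genes whose saline values peaked at different times, Scgb1a1 at 6 h and Scgb3a1 and Agr2 at 12 h. Of the 8 genes, 6 have an entry among the RefSeq promoters of build GRCr8, and the 250 bases before the annotated start are given, 5′ to 3′ on the gene's strand. Capitals mark matches, on either strand, to a forkhead motif (TGTTTNC), the NKX2-1 motif CTCAAG, a C/EBP motif (TTGCNNAA) and the HIF core ACGTG, and, on the gene's strand, to a TATA box (TATAAA).
Scgb1a1, chr1:215409687-215409936, minus strand: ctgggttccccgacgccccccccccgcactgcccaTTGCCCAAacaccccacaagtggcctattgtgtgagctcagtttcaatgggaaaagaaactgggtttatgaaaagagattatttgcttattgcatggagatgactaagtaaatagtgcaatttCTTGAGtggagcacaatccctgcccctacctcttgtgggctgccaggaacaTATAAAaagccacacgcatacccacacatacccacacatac
Scgb3a1, chr10:34468916-34469165, plus strand: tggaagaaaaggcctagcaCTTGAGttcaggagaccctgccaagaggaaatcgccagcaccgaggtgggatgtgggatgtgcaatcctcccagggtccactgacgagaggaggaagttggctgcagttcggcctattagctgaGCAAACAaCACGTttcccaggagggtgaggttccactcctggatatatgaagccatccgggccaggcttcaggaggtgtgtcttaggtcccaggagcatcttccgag
Agr2, chr6:58435658-58435907, plus strand: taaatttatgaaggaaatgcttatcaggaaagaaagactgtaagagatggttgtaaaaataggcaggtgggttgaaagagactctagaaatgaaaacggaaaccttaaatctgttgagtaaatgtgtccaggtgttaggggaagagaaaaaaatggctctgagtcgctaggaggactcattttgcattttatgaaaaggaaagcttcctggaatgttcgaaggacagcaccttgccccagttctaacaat
The Scgb1a1 window holds the NKX2-1, C/EBP and TATA letters, with TATAAA 41 to 36 bases before the start. The Scgb3a1 window holds the forkhead letters at 107 to 101 and the HIF core at 99 to 95 bases before the start, besides 1 NKX2-1 match. No searched letters occur in the Agr2 window. Among 33469 promoters of this length, 18.3% hold the forkhead letters, 13.3% the NKX2-1 letters, 9.22% the C/EBP letters, 16.6% the HIF core and 8.06% the TATA letters, so each match is a description of the window only.

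The secretoglobins read higher after hypoxia than at 0 h on the saline arrays. Hypoxia RNA was red on all 4 of these, so a dye bias does not cancel in the saline values. Nor does it cancel in the cobalt values, where hypoxia RNA was green. Scgb1a1 gave log2 ratios of 1.96 at 6 h, 1.01 at 12 h, 0.63 at 24 h and 0.86 at 48 h on the saline arrays. The highest saline value was the earliest, 3.89-fold over 0 h. On the cobalt arrays the same gene gave -0.91, -0.40, -0.45 and -0.74 at these times. All 4 saline values lay above 0 and all 4 cobalt values below it, with no overlap. The fitted mean was 1.11 ± 0.18 (SE, 4 arrays, adjusted p = 0.0015) in saline and -0.63 ± 0.18 (adjusted p = 0.0389) in cobalt. The cobalt call was lost under 7 of 19 alternative settings, 4 of them the omission of 1 cobalt array.

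Scgb3a2 varied little between the saline arrays, with an SD of 0.25 over 4 arrays of which 1 was saturated. Its saline log2 ratios were 1.53, 1.78, 1.67 and 2.11 at 6, 12, 24 and 48 h, and the last is a lower bound, at least 4.31-fold, because the hypoxia signal was saturated. Its cobalt ratios were -0.35, -0.37, -0.09 and 0.31. Every saline value exceeded every cobalt value. The saline mean was 1.77 ± 0.13 (adjusted p = 3.1e-05), and the cobalt mean of -0.13 ± 0.13 was not called (adjusted p = 0.514).

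Scgb3a1 had its highest values at 12 and 48 h. The saline log2 ratios were 0.87 at 6 h, 5.19 at 12 h, 2.49 at 24 h and 3.88 at 48 h. At 12 h its hypoxia signal was saturated, at 64601 scanner units against 686 in the 0 h channel before normalization. The normalized ratio, 36.4-fold, is therefore a lower bound. Among 24141 genes it ranked 10th from the top at 24 h and 2nd at 48 h. The cobalt ratios were 1.22, -0.51, 1.34 and 1.27, positive on 3 of 4 arrays, and the groups overlapped because 3 cobalt values exceeded the saline 6 h value. The saline mean was 3.11 ± 0.57 (adjusted p = 0.00253) and the cobalt mean 0.83 ± 0.57 (adjusted p = 0.339). Without the saline 12 h array the saline mean was 2.41 ± 0.52 (adjusted p = 0.00914).

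The mucus genes Agr2 and Muc5b shared the 12 h and 48 h peaks of Scgb3a1. Agr2 gave 0.42, 5.22, 1.35 and 2.71 on the saline arrays at 6, 12, 24 and 48 h. The 12 h value was 37.1-fold after normalization, and the signals before it were 13333 against 175 scanner units. On the cobalt arrays Agr2 gave -1.12, -1.35, -0.41 and -0.52, all below 0. The saline mean of 2.42 ± 0.59 was called (adjusted p = 0.0102), and the cobalt mean of -0.85 ± 0.59 was not (adjusted p = 0.347). Both means share the pooled SE, while the SD was 2.09 over the saline and 0.46 over the cobalt arrays. Muc5b gave 0.67, 3.48, 0.55 and 2.22 in saline and 0.85, -0.35, 0.58 and 1.03 in cobalt. Its 12 h saline value, 11.1-fold, ranked 16th on that array. The saline mean was 1.73 ± 0.43 (adjusted p = 0.0105) and the cobalt mean 0.53 ± 0.43 (adjusted p = 0.42), and all 3 Muc5b probes had positive means in both. With each array centred on its median in place of loess, the cobalt means of Scgb3a1 and Muc5b turned to -0.14 and -0.09. Leaving out the saline 12 h array lowered the saline means by over 1.5 times, to 1.49 for Agr2 and 1.14 for Muc5b, with both still called (adjusted p = 0.0148 and 0.0322).

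**Figure D1:**
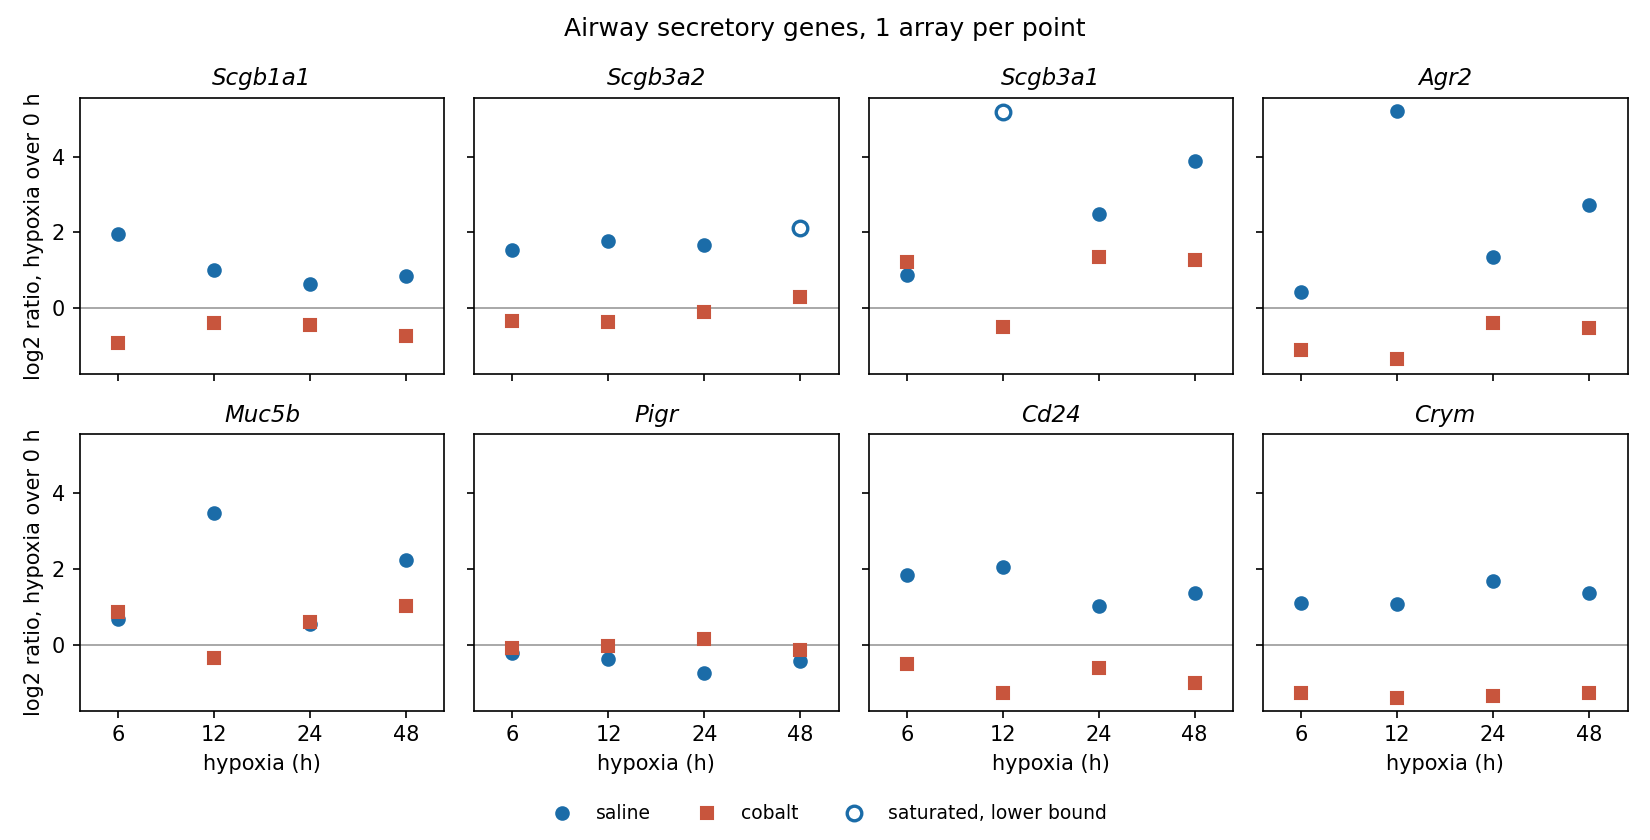
Log2 ratio of hypoxia over 0 h (vertical axis, same scale in every panel) against hours of hypoxia for the 8 genes; each point is 1 array, circles saline and squares cobalt, and open circles are saturated signals that give lower bounds. Scgb3a1, Agr2 and Muc5b peak on the saline 12 h array at 5.19, 5.22 and 3.48, while Crym is near 1.3 above 0 in saline and as far below 0 in cobalt.

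Of the surface and cytosolic genes, Cd24 and Crym read above 0 in saline and below 0 in cobalt, and Pigr slightly below 0 in saline. Cd24 gave 1.84, 2.06, 1.03 and 1.36 at 6, 12, 24 and 48 h in saline and -0.52, -1.29, -0.61 and -1.01 in cobalt. Its means were 1.57 ± 0.17 (adjusted p = 0.000196) and -0.86 ± 0.17 (adjusted p = 0.00857), and its other probe gave 1.39 and -0.53. Crym gave 1.097, 1.08, 1.68 and 1.36 in saline and -1.28, -1.41, -1.37 and -1.27 in cobalt, a spread of 0.28 (SD) and 0.07 (SD) over the 4 arrays of each. Its means were 1.31 ± 0.10 and -1.33 ± 0.10, close to equal in size and opposite in sign. Pigr, the only member below 0 on all saline arrays, gave -0.22, -0.38, -0.74 and -0.45 in saline and -0.10, -0.03, 0.15 and -0.15 in cobalt, with means of -0.45 ± 0.10 (adjusted p = 0.0051) and -0.03 ± 0.10 (adjusted p = 0.839). Under median centring its saline mean was 0.01 (adjusted p = 0.928).

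Counted together, 7 of the 8 members were called higher in saline and 1, Pigr, lower, where 21.8% of all genes tested were called higher and 18.3% lower. In cobalt none was called higher and 3 were called lower (Scgb1a1, Cd24 and Crym), where the shares over all genes were 8.54% and 12.3%. The 5 others were not called in cobalt. At an unadjusted p under 0.05 the cobalt count of higher members was also 0, as the lowest unadjusted p among the positive cobalt means was 0.178. The median of the 8 members was 1.65 in saline and -0.38 in cobalt, against 0.03 and -0.02 over all genes. Whole lung was profiled, so more cells of a type and more RNA per cell cannot be told apart. Centring each array on its median in place of loess raised the median of all genes to 0.28 in saline and lowered it to -0.49 in cobalt, and the share of higher genes among all calls went from 54.3% to 84.1% in saline and from 41% to 25.2% in cobalt. Under that centring 7 members were higher in saline and none lower, beside 11994 higher and 2269 lower of 24141 genes. In cobalt 6 members were lower under it, beside 14520 of 24141 genes.

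The dye orientation runs the same way as this contrast. After loess, Scgb1a1, Agr2, Cd24 and Crym were each brighter in red than in green on 8 of 8 arrays. Red held hypoxia RNA on the saline arrays and 0 h RNA on the cobalt arrays. Crym was brighter in red by 1.08 to 1.68 and Cd24 by 0.52 to 2.06 on the log2 scale. Of all genes tested, 7.83% were brighter in red on all 8 arrays and 4.62% brighter in green. For Scgb3a1, Muc5b and Scgb3a2, red was brighter after loess on 5, 5 and 7 arrays. Before normalization, the red signals of Scgb3a1 and of the brightest Muc5b probe were the higher on every cobalt array too. At 6 h in cobalt they were 2443 against 1669 and 415 against 267 scanner units. In the difference between the responses, cobalt minus saline, 5 members were called lower and 1 higher, where 17.5% and 12.7% of all genes were. Each saline array exceeded each cobalt array for Scgb1a1, Scgb3a2, Agr2, Cd24 and Crym, as it did for 18.8% of all genes. Whether pretreatment or dye gave this difference cannot be told apart.

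The average of both responses, in which a dye bias common to both slides cancels, held 4 members called higher and 1 lower, where 15.7% of all genes were higher and 16.3% lower. Scgb3a1 had the largest average, 1.97 ± 0.41 (adjusted p = 0.0058), or 3.91-fold, positive on 7 of 8 arrays. Muc5b followed with 1.13 ± 0.30 (adjusted p = 0.0187), also positive on 7 of 8 arrays. Scgb3a2 averaged 0.82 ± 0.09 (adjusted p = 2.66e-04), positive on 5 of 8. Cd24 reached 0.36 ± 0.12 (adjusted p = 0.0488), positive on 4 of 8 arrays. Its call was lost under 13 of 19 alternatives, omission of the saline 12 h array among them (0.28, adjusted p = 0.115). Pigr fell by 0.24 ± 0.07 (adjusted p = 0.0223), below 0 on 7 of 8 arrays, and lost its call under 5 of 19. The other 3 averages were not called: 0.79 ± 0.42 for Agr2 (adjusted p = 0.18), 0.24 ± 0.13 for Scgb1a1 (adjusted p = 0.183) and -0.01 ± 0.07 for Crym (adjusted p = 0.907). The Agr2 average was 0.32 without the saline 12 h array and 1.12 (adjusted p = 0.0521) without the saline 6 h array, and the Scgb1a1 average was 0.10 without the latter. The median of the 8 averages was 0.57, against -0.0014 over all genes.

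**Figure D2:**
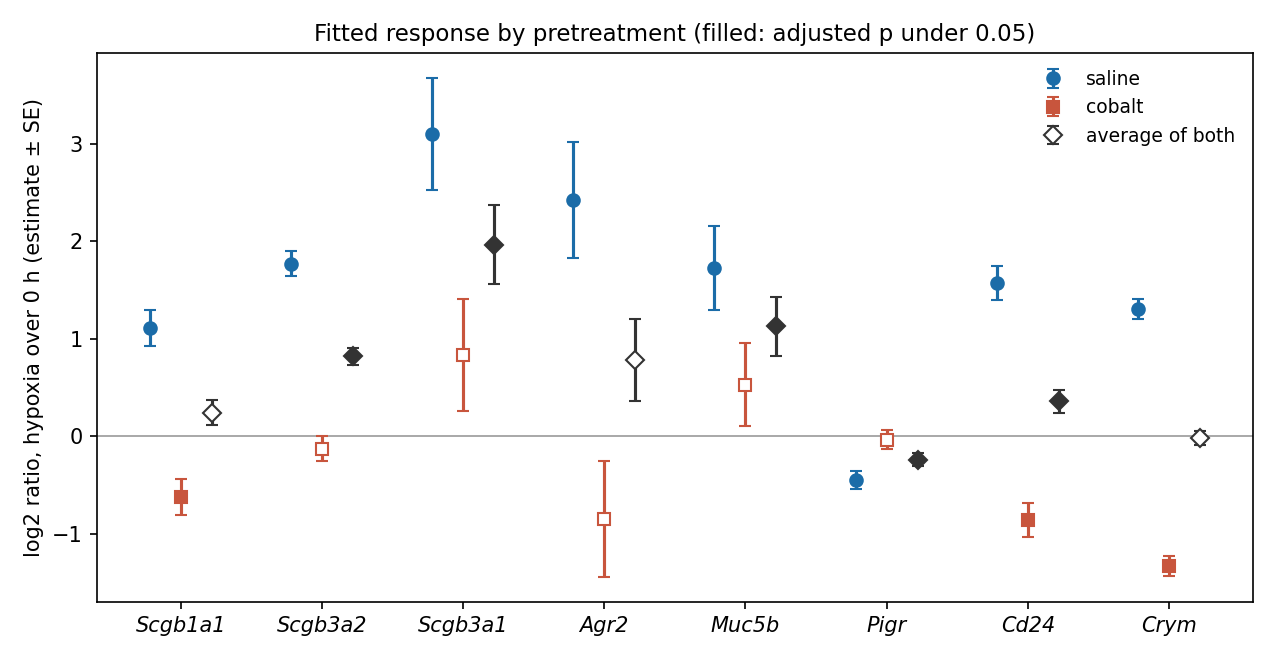
Fitted log2 ratio of hypoxia over 0 h ± SE for each gene, with circles for the mean of the 4 saline arrays, squares for the 4 cobalt arrays and diamonds for the average of both; filled symbols have an adjusted p under 0.05. Scgb3a1, Muc5b, Scgb3a2 and Cd24 have filled diamonds above 0 and Pigr one below, and the saline and cobalt means of Crym, 1.31 and -1.33, mirror each other.

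By duration, only Scgb3a2 was called, and it was called higher at each: 0.59 ± 0.11 at 6 h (adjusted p = 0.0278), 0.71 ± 0.11 at 12 h (adjusted p = 0.0309), 0.79 ± 0.11 at 24 h (adjusted p = 0.0276) and 1.21 ± 0.11 at 48 h (adjusted p = 0.00933), each averaged over both pretreatments. Over all genes 7.75%, 3.84%, 1.38% and 1.51% were called at these times. The cobalt array of Scgb3a2 lay below 0 at 6, 12 and 24 h (-0.35, -0.37 and -0.09), so those averages are positive through the saline arrays. Its 12 h call was lost in 6 of 18 alternatives, 5 of which left out an array. No member was called higher at 6 h with scaling between arrays, or without the 6 h or the 48 h array of either pretreatment. None was at 24 h without the 24 h or the 48 h array of either, or at 48 h without the 48 h array of either. Scgb3a1 gave 1.04 ± 0.86, 2.34 ± 0.86, 1.92 ± 0.86 and 2.58 ± 0.86 with no call. With the saline 12 h array left out, the 12 h value of Scgb3a1 went from 2.34 to 0.06, and those of Agr2, Muc5b and Cd24 turned from 1.93, 1.56 and 0.39 to -0.26, -0.19 and -0.23.

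Between the early (6 and 12 h) and late (24 and 48 h) arrays, a contrast in which dye and the shared 0 h RNA cancel within a pretreatment, no member was called, and 0% of all genes were. At an unadjusted p under 0.05, 3103 genes differed, among them 1 member, Scgb3a2, with 0.35 ± 0.14 late minus early (unadjusted p = 0.0412, adjusted p = 0.37). In saline alone Scgb1a1 was lower late than early by 0.74 ± 0.31 (adjusted p = 0.485) and Cd24 by 0.76 ± 0.27 (adjusted p = 0.44), and Crym was higher late by 0.44 ± 0.15 (adjusted p = 0.439).

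The levels of the 0 h channel differed between the pretreatments, with Cy3 in saline and Cy5 in cobalt. Levels are log2 intensities after quantiles of mean intensity were set equal between arrays, and are compared only within a probe. Scgb1a1 stood at 12.42 ± 0.15 (SD, 4 arrays of 1 RNA) in saline and 14.62 ± 0.03 in cobalt, a difference of 2.20 that only 0.141% of genes reached. Cd24 was 1.94 higher in the cobalt 0 h channel, Crym 1.90, Agr2 1.47, Scgb3a2 1.43, Pigr 0.72 and Scgb3a1 0.62, while Muc5b was at 8.14 ± 0.91 and 7.91 ± 0.08. Over all genes this difference had a median of 0.01, and most genes lay between -1.099 and 1.03. Averaged over both channels of an array, which pairs a red with a green signal in each pretreatment, Scgb1a1 was 1.33 higher on the cobalt arrays (12.98 ± 0.33 against 14.31 ± 0.13, SD), Pigr 0.93, Cd24 0.73, Crym 0.58 and Scgb3a2 0.48. Agr2, higher in the cobalt 0 h channel, was 0.17 lower over both channels (9.29 against 9.12), and Scgb3a1 and Muc5b were 0.52 and 0.83 lower. The saline SDs of Agr2, Scgb3a1 and Muc5b over both channels were 1.26, 1.26 and 1.58. Over both channels most genes lay between -1.003 and 0.97, a range that only Scgb1a1 of the members passed. No test was made of levels.

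By their labels the 4 saline arrays carry the same 0 h RNA, and they did not read Muc5b alike in it. Its 0 h level was 9.47 on the 12 h array, where its hypoxia signal was highest, and 7.67, 7.45 and 7.96 at 6, 24 and 48 h. Scgb3a1 likewise had its highest 0 h level, 10.24, on that array, against 9.44 to 9.77 on the others. Over all genes the 0 h channels of a pretreatment correlated at 0.992 to 0.998. The reason for the higher 0 h reading was not tested.

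**Figure D3:**
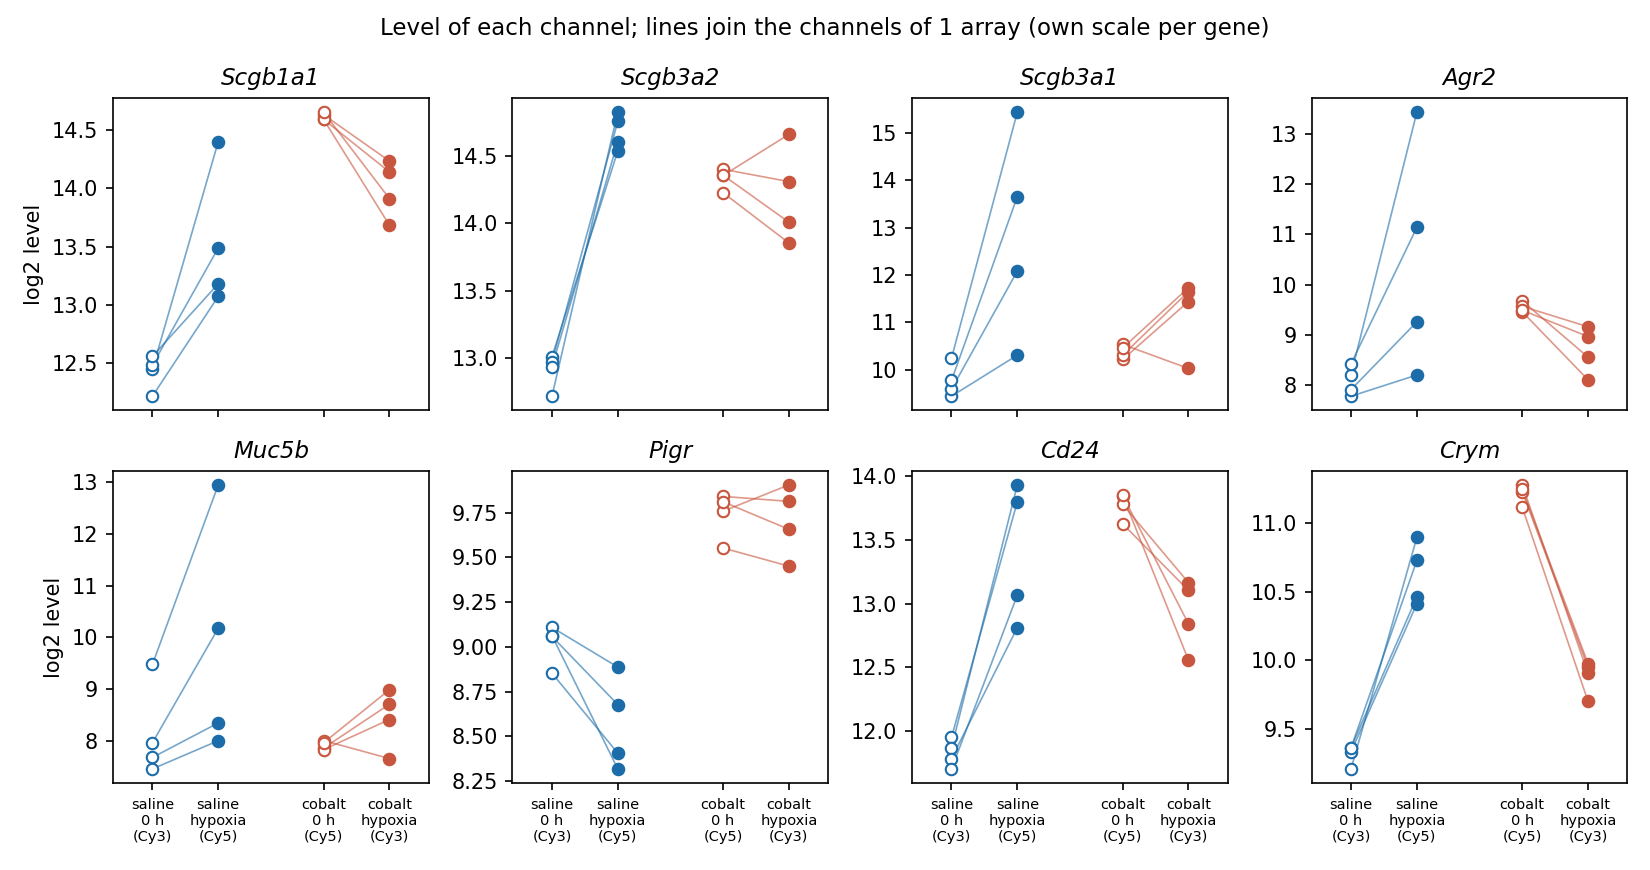
Log2 level of the 0 h channel (open) and the hypoxia channel (filled) for the 4 saline and 4 cobalt arrays, with lines joining the channels of 1 array and a separate vertical scale for each gene. For Crym and Cd24 the red Cy5 channel is the higher on every array, and for Muc5b the saline 0 h level of 9.47 belongs to the array with the highest hypoxia level.

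Other club cell genes moved in both directions. Of 24 listed, 19 were tested, and in the average 4 were higher and 7 lower with a median of -0.02, where 15.7% of all genes were higher and 16.3% lower. Among those with the lowest p, Lypd2 rose by 0.62 ± 0.08 (adjusted p = 6.20e-04), while Ces1d, a carboxylesterase, fell by 1.06 ± 0.14 (adjusted p = 7.77e-04) and Selenbp1, a selenium-binding protein, fell by 0.83 ± 0.13 (adjusted p = 0.00145). In saline 5 of the 19 were higher and 2 lower, beside 21.8% and 18.3% of all genes. In cobalt 1 was higher and 9 lower, beside 8.54% and 12.3%. Of 8 mucous and goblet cell genes tested, 3 were higher in the average and none lower: Agr3, a relative of Agr2, with 0.47 ± 0.12, Clca1 with 0.42 ± 0.10 and Muc20 with 0.10 ± 0.03. Muc2, Tff1, Tff2 and 4 more were too dim to be tested. Of 12 mucosal defence genes, Dmbt1 rose in the average by 0.54 ± 0.15 (adjusted p = 0.0204). Lyz2 and Lpo, a lysozyme and a peroxidase, fell in the average by 0.36 ± 0.09 and 0.13 ± 0.04. Lyz2 stood at -1.17 in saline and 0.45 in cobalt, and Lpo at -0.35 and 0.08, opposite signs that also follow the dye orientation. Dmbt1 stood at 0.97 and 0.11.

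Of 20 regulators of airway cells tested, 3 were higher and 5 lower in the average with a median of -0.05, beside 15.7% and 16.3% of all genes. Hey1, a Notch target, fell by 0.64 ± 0.08 (adjusted p = 4.95e-04), the Notch ligand Jag2 rose by 0.53 ± 0.07 (adjusted p = 5.53e-04), and Foxa3, a forkhead factor of mucous cells, rose by 0.25 ± 0.06 (adjusted p = 0.00849).

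Markers of other cell types were read on the same arrays, and their counts in the average stand beside 15.7% of all genes higher and 16.3% lower. Of 14 ciliated cell genes, 7 were higher and 1 lower in the average, led by Rsph1 (0.57 ± 0.08), Tppp3 (-0.44 ± 0.06) and Tekt4 (0.64 ± 0.10). In saline 10 of them were higher and 1 lower, beside 21.8% and 18.3% of all genes. In cobalt 1 was higher and 7 lower, beside 8.54% and 12.3%. Rsph1 stood at 1.59 in saline and -0.45 in cobalt, opposite signs that also follow the dye orientation. Of 7 B and plasma cell genes none was higher in the average and Cd22 was lower (-0.38 ± 0.06), but the median of the list on the saline 12 h array was 1.12, against -0.52 to -0.17 on the other saline arrays. On that array the plasma cell genes Jchain and Mzb1 stood at 2.68 and 2.40, values read after the array had been singled out. The summed log2 level of this list in the hypoxia channel was 10.39 to 12.69 in saline and 10.39 to 10.57 in cobalt. Type I cell genes had a median of -1.19 on the saline 12 h array and -0.43 to -0.10 on the other saline arrays, with 5 of 8 lower in the average and Aqp5 (-0.85 ± 0.19), Pdpn (-0.75 ± 0.18) and Rtkn2 (-0.49 ± 0.11) first. Type II cell genes had 6 of 10 lower and 1 higher in the average, with Etv5 at -0.48 ± 0.07, Fabp5 at 0.41 ± 0.09 and Slc34a2 at -0.31 ± 0.08. In saline 9 of the 10 were lower and none higher, beside 18.3% and 21.8% of all genes. In cobalt none was lower and 4 were higher, beside 12.3% and 8.54%. Fabp5 stood at -0.46 in saline and 1.28 in cobalt, opposite signs that also follow the dye orientation. The part of these cell types in the values of Scgb3a1, Agr2 and Muc5b on the saline 12 h array was not tested.

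The shares of all genes called in the average, 15.7% higher and 16.3% lower, also stand beside the lists that follow. Smooth muscle genes were higher in 5 of 6, among them Des at 2.02 ± 0.08, Actg2 at 1.76 ± 0.08 and Cnn1 at 1.55 ± 0.10. None of these named genes peaked at 12 h in saline. General epithelial genes were higher in 3 of 13 and lower in 1, with Cldn7 at 0.79 ± 0.11, Krt7 at 0.58 ± 0.08 and Krt18 at 0.48 ± 0.09. Basal cell genes were higher in 1 of 7, Krt14 at 1.15 ± 0.13, and lower in 1, Krt15 at -0.65 ± 0.19, with Aqp3 at 0.63 ± 0.23 not called. Neuroendocrine genes were higher in 2 of 6, Resp18 at 1.495 ± 0.24 and Uchl1 at 0.36 ± 0.10, with Chga at 0.09 ± 0.04 not called. Neutrophil genes were higher in 1 of 9, Mmp9 at 0.35 ± 0.12, and lower in 1, Csf3r at -0.32 ± 0.09, with Mmp8 at 0.37 ± 0.15 not called. Of cartilage genes, none of 5 was called (Col11a2 -0.43 ± 0.15, Col9a1 0.12 ± 0.05, Sox9 -0.18 ± 0.11), and Acan, Matn3, Cnmd and Hapln1 were too dim to be tested.

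**Figure D4:**
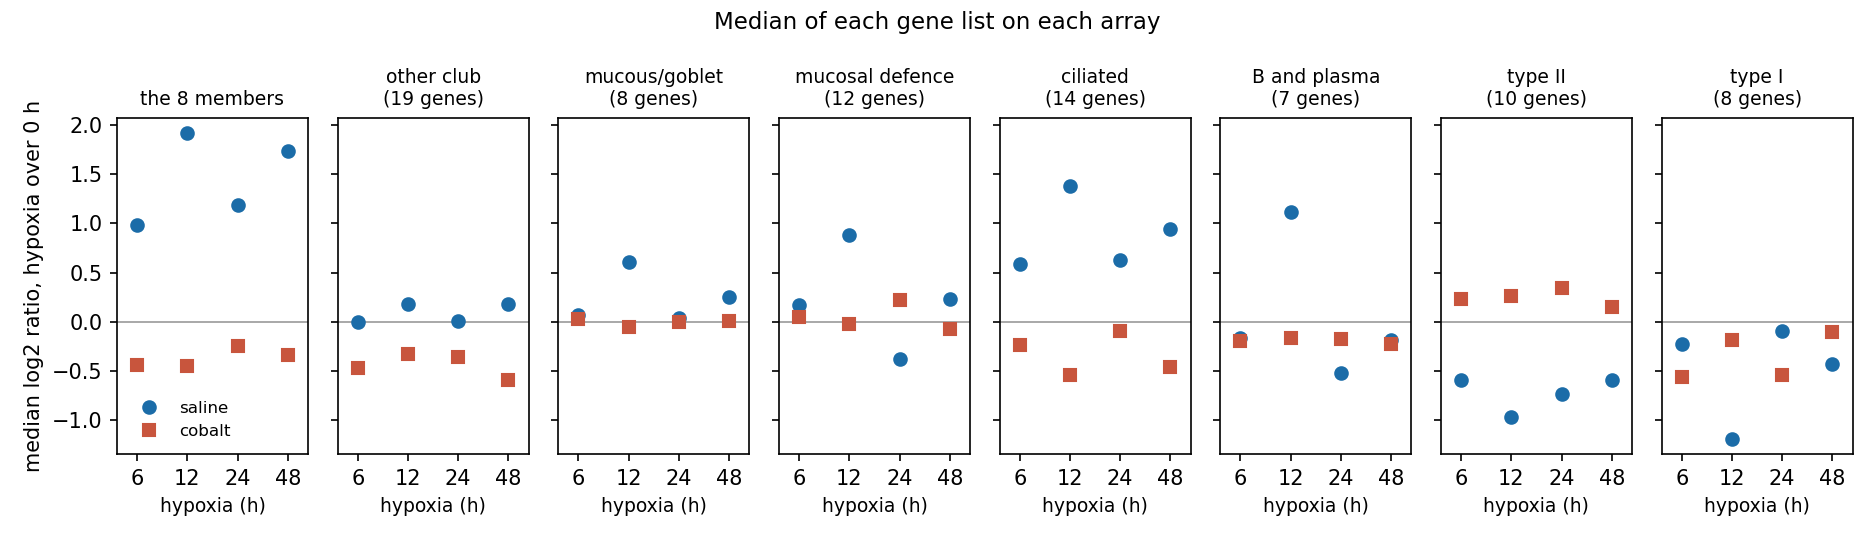
Median log2 ratio of hypoxia over 0 h on each array for the 8 members and for lists of other club, mucous, mucosal defence, ciliated, B and plasma, type II and type I cell genes, against hours of hypoxia; circles are saline and squares cobalt arrays. On the saline 12 h array the medians of the members, ciliated and B and plasma cell lists are at their highest, 1.92, 1.38 and 1.12, and that of the type I list is at its lowest, -1.19.

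The time courses of Scgb3a1, Agr2 and Muc5b resembled each other more than those of other members. After centring within each pretreatment, the ratios over the 8 arrays correlated at r = 0.919 to 0.922 between these 3 genes, a description only, since the arrays share their 0 h RNA and the saline 12 h array carries much of the spread. The same r was -0.61 between Scgb1a1 and Scgb3a1, and -0.37 between Scgb1a1 and Scgb3a2. Among 11954 other named genes, those most like Scgb3a1 by this measure were H2ac25, H2ac18, Dynlt2b, Gjb2 and Lrrc71 (r of 0.969 to 0.985). Those most like Scgb1a1 were Csnk2b, Marf1, Spi1, Zfp455 and Ucp2 (r of 0.966 to 0.982), and those most like Scgb3a2 were Wdr6, Fbln2, Cx3cr1, Dicer1 and Ndufaf7 (r of 0.976 to 0.991). These genes were picked for the highest r among many candidates over 8 arrays.

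On the saline 12 h array, 4 members exceeded a log2 ratio of 2 (Scgb3a1, Agr2, Muc5b and Cd24), as did 161 of all genes (0.667%). At 48 h, 4 did so as well (Scgb3a1, Agr2, Muc5b and Scgb3a2), among 50 genes (0.207%). No member passed that size on a cobalt array.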

How the data were processed

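Lung RNA of 8 hypoxia groups was measured on 8 Agilent arrays of 2 colours, 1 per group. The deposited scanner files hold intensity values for both channels and a log10 ratio, made with Agilent Feature Extraction 9.5.1.1 per the file headers. The deposited value table holds log2 ratios of hypoxia over 0 h with a median of 0, which matched the log10 ratios of the scanner files; how it was made is not given in the sources used here. Mean signals were corrected with normexp (offset 50) and normalized by loess on each array, using limma 3.58.1 under R 4.3.3, and turned to hypoxia over 0 h. Channel levels used Aquantile. A probe was kept where 4 or more of the 8 arrays read it well above background in 1 channel or both (28419 of 41012), outlier spots were dropped, and the brightest probe stood for a gene. Between 57.7% and 72.7% of spots per channel were well above background, and the number of arrays limits the precision.

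Fits by lmFit and eBayes with an intensity trend covered all 8 arrays, for pretreatment means, early and late phases, and durations, with Benjamini-Hochberg adjustment over 24141 genes. The code was tested on simulated data. Probe names were updated through RefSeq: 10735 probes by accession, 5512 by symbol and 3719 by synonym, and 21046 kept the name in the file. For lists, the 3 genes with the lowest p in the average were named (1 such gene is not reported here), and for likeness the 5 genes with the highest r. The members and lists were chosen with earlier results of these data known. Alternatives covered background, normalization, filter, probe choice, model and omission of each array.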

Additional observations from a re-analysis of the deposited data

Results flagged for a closer look

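The response to hypoxia differed between the pretreatments, by the test of the difference in limma, for 6 of the 8 genes. Of all genes tested, 17.5% were called lower and 12.7% higher in this difference. Cobalt minus saline was -1.7383 for Scgb1a1 (adjusted p = 0.00143), -1.8999 for Scgb3a2 (adjusted p = 0.000182), -3.2736 for Agr2 (adjusted p = 0.0166), -2.4293 for Cd24 (adjusted p = 0.000238) and -2.6373 for Crym (adjusted p = 1.9e-05), on the log2 scale. For Pigr it was 0.4144 (adjusted p = 0.0425), a call that was lost under 12 of 19 alternatives and turned to -0.936 under median centring. Scgb3a1 (-2.27, adjusted p = 0.0589) and Muc5b (-1.20, adjusted p = 0.16) were not called. Pretreatment, slide, scan and dye orientation cannot be told apart in these differences.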

How the results depend on the processing

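Over 152 values of single genes per comparison, 151 of the saline responses, 139 of the cobalt responses, 129 of the averages and 136 of the differences kept their direction and their side of the threshold, as did 132 of 144 values at 12 h. The Crym average, near 0, was 0.0026 with the scanner software's log ratio, 0.0038 with the deposited value table, and -0.0762 to 0.0247 with 1 array left out. Median centring gave 0.0143 for Pigr in saline, -0.1425 for Scgb3a1 and -0.0875 for Muc5b in cobalt, and -0.936 for the Pigr difference, and made 0 members lower in saline, 6 lower in cobalt, 8 lower and 0 higher in the difference. Under it all genes gave 11994 higher and 2269 lower calls in saline (5261 and 4426 with loess), 4899 and 14520 in cobalt (2061 and 2963), and 4095 and 14962 in the difference (3064 and 4213), where the share of higher calls went from 42.1% to 21.5% and the median of all genes to -0.78, and 5941 lower calls in the average (3926). Pigr in cobalt ranged from -0.0943 to 0.0061 with 1 array left out. With 1 array left out, the 12 h values ranged from 0.0584 to 4.6219 for Scgb3a1, -0.2648 to 4.1275 for Agr2, -0.1873 to 3.3159 for Muc5b and -0.2272 to 0.9977 for Cd24. Members called lower in the average numbered 0 with scaling between arrays and 0 to 1 with 1 array left out. Members called higher in the difference numbered 0 with the software's log ratio, scaling, the value table, no filter or duration as a factor, and 0 to 1 with 1 array left out. Members called higher numbered 0 with scaling at 6 h and at 12 h, and with 1 array left out 0 to 2 at 6 h, 0 to 4 at 12 h, 0 to 1 at 24 h and 0 to 3 at 48 h. Without the cobalt 24 h array, 994 genes were higher and 1243 lower in cobalt. Scaling gave 509 higher and 443 lower calls at 6 h (988 and 884), 78 and 53 at 12 h (449 and 478), 552 and 606 at 24 h (185 and 148), and 49 and 44 at 48 h (188 and 176). Higher and lower calls fell to 45 and 11 at 6 h without the saline 6 h array, 11 and 2 at 12 h without the saline 12 h array, 6 and 0 at 24 h without the cobalt 24 h array, and 11 and 1 at 48 h without the cobalt 48 h array. The causes were not tested. Arrays could not be paired by replicate number, as each group has 1 array, but the fit with duration as a factor matched the saline and cobalt arrays of equal duration. Of 16 alternative 0 h differences, 7 moved by more than the spread between arrays.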

Other observations

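The 20 genes with the highest ratios on the saline 12 h array included, beside Scgb3a1, Agr2 and Muc5b, the heat shock gene Hspa1a with a log2 ratio of 5.33, the M cell glycoprotein gene Gp2 with 4.56, the lymphoid chemokines Cxcl13 with 4.53 and Ccl19 with 3.89, and the interferon-induced chemokine Cxcl10 with 3.58. At 48 h in saline Gp2 stood at 3.17, Cxcl13 at 2.15 and Ccl19 at 2.17. Of the 4 listed mucin genes that were tested, Muc4 stood at 2.27, Muc5ac at 1.59, Muc20 at 0.22 and Muc1 at -0.44 on the saline 12 h array. The chemokine gene Ccl20 stood at 3.10 there and at 1.77 at 48 h in saline. All were read after the array had been singled out, each value from 1 array, and none of these values was tested.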
